A study of Mus musculus with 8 samples.

Results

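The 80 mouse genes described here encode the proteins of the cytoplasmic ribosome. They were chosen by gene symbol alone: every probe named as a large subunit (Rpl) or small subunit (Rps) protein gene, with Rplp0, Rplp1, Rplp2 and Rpsa and without the Rps6k kinases. They carry 134 of 41174 probes and make up 80 of 27574 genes on the array, and each gene is represented by its brightest probe. Of the 80, 79 were tested in both comparisons. The exception is Rpl3l, a paralog known from striated muscle, whose probe stood well above background in deleted RNA on 1 of 4 arrays, and in control, GFPhi and GFPlo RNA on none.

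There were 2 comparisons, made on 8 arrays with a dye for each of the 2 RNAs. In the first, RNA of small intestinal epithelium from Ah-Cre/Ascl2floxed/floxed mice (deleted) was set against that from Ah-Cre/Ascl2floxed/wt mice (control), 3 and 5 days after Cre was induced. Both groups therefore carry Cre under the inducible Ah promoter and at least 1 floxed allele; the controls keep 1 wild-type copy. The floxed part of the gene is not stated in the labels. In the second, GFPhi cells were set against GFPlo cells, both sorted from Lgr5-EGFP-ires-CreERT2 mice, in which green fluorescent protein is made under the Lgr5 promoter, a marker of crypt base stem cells. There were 2 sorts, each pooling 3 mice. For each of 4 RNA pairs there were 2 arrays of opposite dye orientation, whose mean is 1 replicate. Each comparison thus has n = 2 RNA pairs. For the deletion the 2 pairs are day 3 and day 5, so its SDs include any difference between the days. The number of animals behind a deletion pair and the animals' ages are not given in the sources used here.

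A ribosome is built from a small subunit, which reads the messenger RNA, and a large subunit, which joins amino acids. One copy of most ribosomal proteins goes into each ribosome, and the genes are expressed together in growing cells, with Myc and the mTOR pathway among their known regulators. Their messenger RNAs start with a run of pyrimidines, the terminal oligopyrimidine (TOP) sequence, through which mTOR controls their translation. In the intestine, dividing crypt cells make many ribosomes, and their progeny on the villus divide no more.

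The share of spots well above background in a channel ran up to 66.9% and was at least 55.02% for the deletion. For the sorts it lay between 35.5% and 44.6%. No member's spot was saturated. The members are bright: their median log2 intensity was 16.0, against 7.52 for all genes, and 61 of the 200 brightest genes are members. The 4 RNA pairs lie on 4 slides, 1 pair a slide, so slide and RNA pair cannot be told apart. Ascl2, the deleted gene, had a mean log2 ratio of -1.32 ± 0.0079 in deleted over control epithelium (SD, n = 2 RNA pairs), with a limma adjusted p of 0.240. Lgr5, which drives the sorted reporter, had one of 1.86 ± 0.347 in GFPhi over GFPlo cells, with a limma adjusted p of 0.632. With so few arrays the precision of all values is limited. Nothing says that the extracts of a day came from separate animals, so p values measure the spread between RNA pairs. For the 2 comparisons this spread is pooled over all 4 pairs. It therefore includes the difference between the deletion days.

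In deleted epithelium nearly the whole family lay slightly below control, on both days. The median log2 ratio of the members was -0.35 on day 3, where 78 of 79 were lower, and -0.18 on day 5, where 73 of 78 were lower. Over both days 78 of 79 had a mean below 0, with a median of -0.26 and quartiles of -0.31 and -0.20, while the median of all 15900 genes tested was -0.00. None of the 79 passed the limma test at an adjusted p of 0.05, and neither did any of the 15900 genes (0%). At an unadjusted p under 0.05 there were 26 members, against 9.65% of all genes tested. The members' adjusted p values ran from 0.447 to 0.958 and their standard errors from 0.0784 to 0.222. With the day 5 pair left out, 44 members and 6167 genes passed, and with the day 3 pair left out, 1 member and 1244 genes. In these fits the lone pair is assumed to vary like the sorts. In RNA of a whole epithelium, fewer cells of a type and less RNA per cell cannot be told apart.

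The shift was small and its sign regular. Among the 78 members measured in both RNA pairs, 73 (93.6%) were lower in deleted epithelium in both, a sign pattern that 25% of all genes tested had. On the single arrays the count is smaller: 23 of 78 members were lower on all 4 arrays, against 13.3% of all genes. The single arrays also carry a dye term, visible in the plot of the 8 arrays. Members gave more signal in Cy5 than in Cy3, by a median of 0.30 on the log2 scale on day 3 (0.5 times the difference of the dye-swapped arrays), 0.23 on day 5, 0.10 in sort 1 and 0.25 in sort 2, while all genes tested had medians between 0.00 and 0.02. With the deleted RNA in Cy3, the members' median was -0.62 on day 3 and -0.40 on day 5. With the deleted RNA in Cy5 it was -0.08 on day 3 and 0.09 on day 5. The term enters the 2 arrays of a pair with opposite signs and cancels in their mean, so all later values are means over both dyes. Where 1 array of a pair was left out as an outlier, that pair has no value: this concerns, among others, Rps6 on day 5 and Rplp2 in sort 2.

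**Figure D1:**
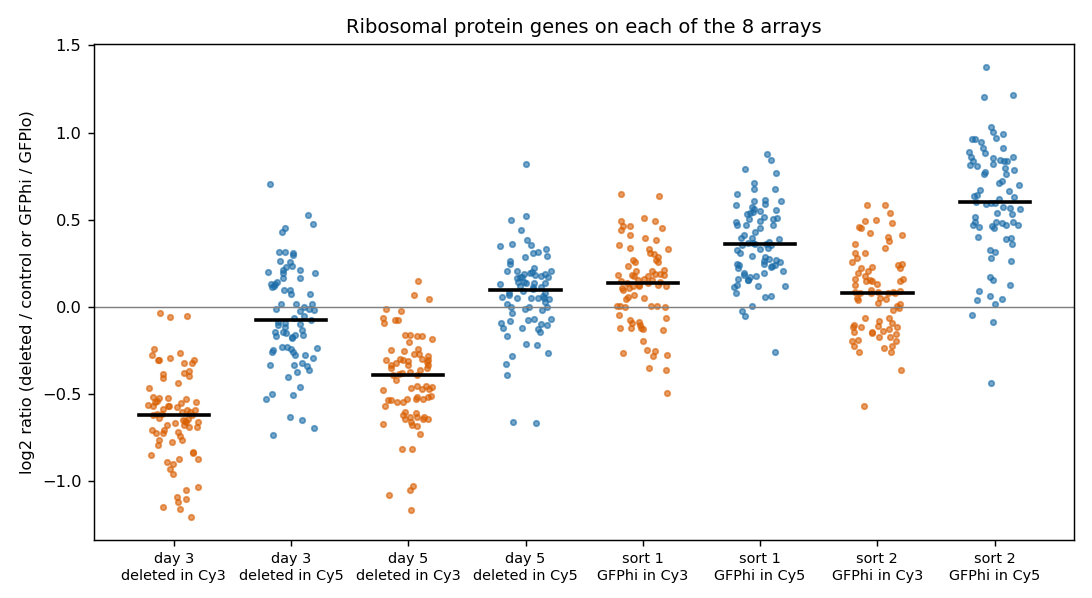
Log2 ratio of each tested ribosomal protein gene (points) on each of the 8 arrays, with the median as a black bar; orange marks arrays with deleted or GFPhi RNA in Cy3, blue in Cy5. Medians on the deletion arrays are -0.62, -0.08, -0.40 and 0.09 from left to right, and those on the sort arrays 0.14, 0.36, 0.08 and 0.60; within each RNA pair the blue array lies higher.

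The lowest members under deletion were Rpl genes, together with Rps6, which was ranked on its day 3 value alone. Rpl14, a large subunit protein, had log2 ratios of -0.96 and -0.65 on the 2 arrays of day 3 and -0.22 and -0.52 on those of day 5. Its mean was -0.59 ± 0.310 (SD, n = 2 RNA pairs), for which limma gave an adjusted p of 0.462 (standard error 0.14). All 4 of its arrays lay below 0, but the days differed, with -0.81 on day 3 and -0.37 on day 5. Rpl22l1, the paralog of Rpl22, was steadier by its brightest probe, at -0.53, -0.46, -0.67 and -0.31 on the 4 arrays. Its pair means were -0.50 on day 3 and -0.49 on day 5, 1.41-fold lower in deleted epithelium (standard error 0.0949, limma adjusted p = 0.447). A second, much dimmer probe of Rpl22l1 was not steady, with -0.34 on day 3 and 0.03 on day 5. Rpl22 itself, which in mice is known to hold Rpl22l1 in check, had a mean of -0.24 ± 0.153. Rpl31, which lies at the exit of the nascent chain, had -0.48 on day 3 and -0.47 on day 5. Its second, somewhat dimmer probe read -0.40 on day 3 and -0.13 on day 5. Rpl14 and Rpl31 are among the dimmer members, with log2 intensities of 11.3 and 11.2. Rps6, the small subunit protein that S6 kinases phosphorylate, had -0.54 on day 3 and no value on day 5. On day 3, when most members had the lower ratio, Rps2 (-0.75) and Rpsa (-0.69) lay below Rps6. Rpl27a averaged -0.44 ± 0.129, but its second, dimmer probe read -0.37 on day 3 and 0.33 on day 5. Rpl12, which helps to form the base of the stalk, averaged -0.44 ± 0.125. None of these passed the test.

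At the other end of the family, values came close to 0. Rpl21 was the single member with a mean above 0, at 0.02 on day 3 and 0.01 on day 5, and after Rpl3l it was the dimmest member, with a log2 intensity of 10.2. Its second probe read -0.23 on day 3 and 0.17 on day 5, so the probes of this gene disagree in sign. Under median centring, described below, Rpl21 had a mean of -0.12. Rpl10, a late-joining protein of the large subunit, averaged -0.06 ± 0.064. Rps27 averaged -0.15 ± 0.182, Rpl23a -0.17 ± 0.161 and Rps24 -0.17 ± 0.132, all SDs over 2 RNA pairs. The dimmer probes of Rps24 averaged -0.55 and -0.59, as low as Rpl14, so the place of Rps24 in this ranking depends on the probe. For Rpl10 and Rps27 the SD is larger than the mean.

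By role, the parts of the ribosome lay close together under deletion. The 42 large subunit genes had a median of -0.33 on day 3 and -0.16 on day 5, and 41 of them were lower over both days. The 31 small subunit genes had -0.35 on day 3 and -0.21 on day 5, and all 31 were lower over both days. The P-stalk proteins Rplp0, Rplp1 and Rplp2, which recruit elongation factors to the ribosome, averaged -0.20 ± 0.165, -0.27 ± 0.330 and -0.32 ± 0.208 in deleted over control epithelium. Rpsa, also known as the laminin receptor precursor, averaged -0.42 ± 0.385, and Rps19, the gene most often mutated in human Diamond-Blackfan anaemia, -0.30 ± 0.069. Rpl5 and Rpl11, which as a free complex bind Mdm2, averaged -0.27 ± 0.148 and -0.26 ± 0.107. X-linked Rps4x averaged -0.19 ± 0.0033, and Rpl13a, a protein with a known second role outside the ribosome, -0.20 ± 0.249.

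Most members had the higher ratio on day 5 with loess normalization, while median centring turned the order of the days, where the members lay at -0.42 on day 3 and at -0.50 on day 5 (medians). By loess the difference, day 5 minus day 3, had a median of 0.17 over 78 members, and 64 of them were above 0. Of the 78, 6 members (7.69%) passed the limma test for the day difference, against 28.6% of all 15868 genes tested. In that test the spread comes from the 2 sorts alone, because each day has 1 RNA pair. The p values therefore hold no measure of the spread within a day, and day, slide and animals cannot be told apart. No gene at all passed this test under median centring or with the scanner's processed signals. Rps2, a small subunit protein, had log2 ratios of -1.16 and -0.34 on the day 3 arrays and -0.48 and 0.29 on the day 5 arrays, a difference of 0.65 (limma adjusted p = 0.0280). Rpsa had pair means of -0.69 on day 3 and -0.14 on day 5, a difference of 0.54 (limma adjusted p = 0.0298). Rps13 differed by 0.77 (0.0404) and Rpl3, a protein near the peptidyl transferase centre, by 0.43 (0.0484), with limma adjusted p values in parentheses. Both had the lower ratio on day 3.

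Rpl7l1 and Rplp1 stand at the 2 ends of the day difference. Rpl7l1, a paralog of Rpl7 known from the nucleolus and pre-ribosomes, had -0.61 and -0.70 on the day 3 arrays and 0.07 and 0.17 on the day 5 arrays. Its arrays of the 2 days do not overlap and have opposite signs, and the difference was 0.77 (limma adjusted p = 0.0302). Rplp1 went the other way. It had -0.03 on day 3 and -0.50 on day 5, a difference of -0.47 (limma adjusted p = 0.0419). Rps27, Rps14, Rps24, Rps12 and Rpl17 followed it in rank with differences from -0.26 to -0.11, none past the test. Rpl7a, at 0.55, and Rpl4, at 0.47, complete the upper end and did not pass either. In a fit of the 8 single arrays that treats the RNA pair as a random block, 1 member (Rpl7l1) passed, with a limma adjusted p of 0.0229. Among all genes 2181 passed in that fit, where each day is still 1 RNA pair.

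**Figure D2:**
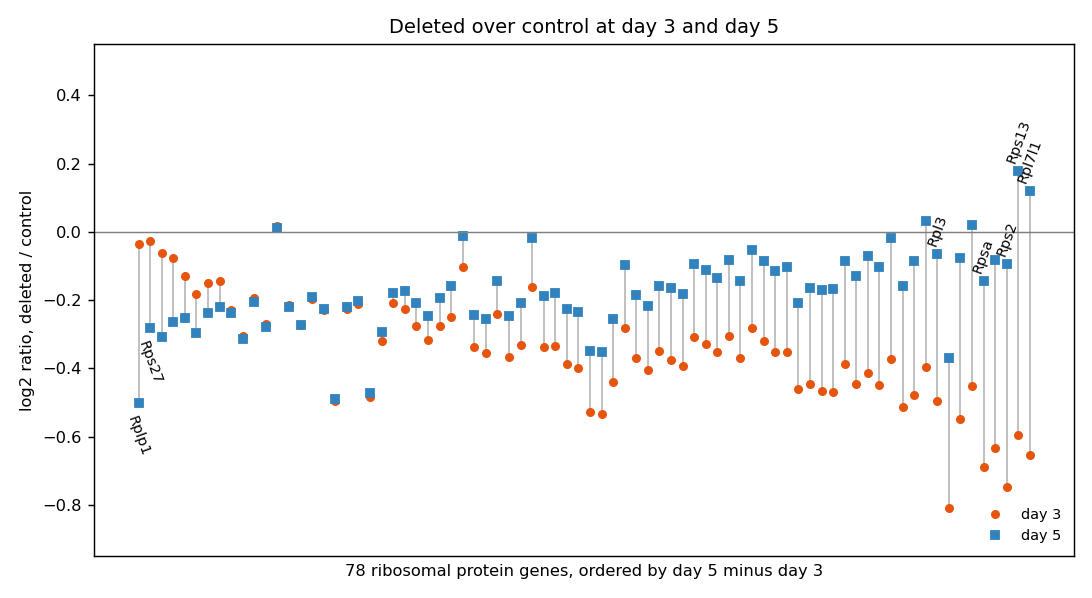
Mean log2 ratio of deleted over control (both dyes) on day 3 (orange circles) and day 5 (blue squares) for the 78 members measured on both days, ordered by the difference. Most members lie below 0 on both days, Rplp1 is lower on day 5, and Rps13 and Rpl7l1 lie above 0 on day 5.

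Promoters from RefSeq (build GRCm38.p6, 250 bases before to 50 after the annotated start) were matched by symbol for 60 of the 80 members. A run of at least 6 C or T letters within 20 bases before to 15 after the start was present in 41 of these 60 (68.3%), against 45.0% of all genes with a promoter. A start at C followed by 4 further C or T letters was present in 13 (21.7%), against 3.01% of all genes. The letters TTCCGG, the core bound by ETS factors, were present on either strand in 33 of these 60 members and 16.7% of all genes. CTCTTTCC was present in 10 (16.7%) and 3.57%, TCTCGCGA in 11 (18.3%) and 1.13%, AAGATGGC, the core bound by YY1, in 6 (10.0%) and 3.19%, and TATAAA in 7 (11.7%) and 15.7%. TTCCGG and CTCTTTCC can overlap at TTCC. A match is a description of the letters and not a site. The windows below run from 60 bases before to 15 after the annotated start, on the gene's strand, for the members on which the results turn, with capitals for runs of at least 6 C or T letters within 20 bases before to 15 after the start. Rpl14, Rps6 and Rpl22l1 ranked lowest under deletion by their brightest probes, Rps6 with a day 3 value alone. Rpl7l1 had the largest day difference, and Rps24, Rpl5 and Rps19 had the highest ratios in GFPhi cells. Rps27 is shown beside its paralog Rps27l. Where several promoters are listed for a gene, the first is shown.
Rpl14 (chr9:120571457-120571531, plus strand): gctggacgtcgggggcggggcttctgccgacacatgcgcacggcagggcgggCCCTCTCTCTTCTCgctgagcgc
Rps6 (chr4:86857353-86857427, minus strand): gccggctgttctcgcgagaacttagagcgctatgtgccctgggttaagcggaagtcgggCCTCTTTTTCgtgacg
Rpl22l1 (chr3:28805448-28805522, plus strand): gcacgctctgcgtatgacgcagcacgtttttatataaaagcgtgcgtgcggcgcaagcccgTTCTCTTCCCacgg
Rpl7l1 (chr17:46782642-46782716, minus strand): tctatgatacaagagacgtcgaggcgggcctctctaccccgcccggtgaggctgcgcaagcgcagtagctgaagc
Rps24 (chr14:24490618-24490692, plus strand): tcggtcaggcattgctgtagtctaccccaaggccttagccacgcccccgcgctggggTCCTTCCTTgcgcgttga
Rpl5 (chr5:107900468-107900542, plus strand): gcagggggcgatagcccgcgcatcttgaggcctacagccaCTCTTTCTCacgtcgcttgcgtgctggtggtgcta
Rps19 (chr7:24884532-24884606, plus strand): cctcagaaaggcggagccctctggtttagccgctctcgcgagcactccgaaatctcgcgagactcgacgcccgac
Rps27 (chr3:90213634-90213708, minus strand): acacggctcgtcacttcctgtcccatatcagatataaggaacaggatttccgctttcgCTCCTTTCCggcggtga
Rps27l (chr9:66946026-66946100, plus strand): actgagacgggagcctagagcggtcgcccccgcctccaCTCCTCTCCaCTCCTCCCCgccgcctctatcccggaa
In Rpl14, Rps6, Rps24 and Rps27 the marked run spans the annotated start. In Rpl22l1 it begins 1 base after the first transcribed base, in Rpl5 and Rps27l it ends before the start, and the windows of Rpl7l1 and Rps19 hold none there.

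In the stem cell sort the family lay on the other side. The median log2 ratio of the members in GFPhi over GFPlo cells was 0.25 in sort 1, where 76 of 79 were higher, and 0.36 in sort 2, where 72 of 77 were higher, although with arrays centred on their median alone the sort 2 median was -0.20. Over both sorts 77 of 79 members had a mean above 0, with a median of 0.31, or 0.13 under median centring, while the median of all 10440 genes tested was 0.00. No member and no gene (0%) passed the limma test. The spread in that fit is pooled with the deletion pairs, so these p values also carry the difference between the deletion days. A fit of the sorts alone called 113 genes and 0 members. At an unadjusted p under 0.05 there were 44 of 79 members, against 5.05% of all genes tested, and the members' adjusted p values ran from 0.663 to 0.999. In both RNA pairs 71 of 77 members (92.2%) were higher in GFPhi cells, against 34.8% of all genes, but 3 members were under median centring and 50 with the scanner's processed signals. On all 4 sort arrays 39 of 77 members were higher, against 16.7% of all genes.

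By their brightest probes, the highest members in GFPhi cells were mostly small subunit proteins. Rps24 had log2 ratios of 0.46 and 0.36 on the arrays of sort 1 and 0.50 and 1.001 on those of sort 2. Its mean was 0.58 ± 0.239 (SD, n = 2 RNA pairs), 1.49-fold higher in GFPhi cells (standard error 0.12, limma adjusted p = 0.663), and all 4 arrays were above 0. Its 2 dimmer probes had means of 0.08 and 0.19. Rpl5 read 0.64 and 0.65 on the sort 1 arrays, and -0.07 and 0.91 on the sort 2 arrays. Its mean was 0.53 ± 0.158. Rps19 averaged 0.49 ± 0.240, Rps4x 0.48 ± 0.086 and Rps9 0.44 ± 0.125. Each of these 5 was also above 0 on average under median centring. The order depends on the probe: Rpl36a, of the large subunit, averaged 0.19 by its brightest probe. Its other probes, nearly as bright, averaged 0.55 and 0.60. Of the genes lowest under deletion, Rpl12 averaged 0.42 ± 0.068 and Rpl27a 0.40 ± 0.114 (-0.22 by its dimmer probe) in the sorts. Rps6, ranked there by day 3 alone, averaged 0.21 ± 0.168 in the sorts.

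Rps27l was the member with the lowest ratio in GFPhi cells. This paralog of Rps27 is known to be induced by p53. It had log2 ratios of -0.36 and -0.26 on the arrays of sort 1 and -0.37 and -0.44 on those of sort 2, so all 4 arrays lay below 0. Its mean was -0.36 ± 0.064 (standard error 0.13, limma adjusted p = 0.995), a GFPhi level 0.780 times that in GFPlo cells. With the sorts fitted alone, the limma adjusted p of Rps27l was 0.103. Rps27 itself read 0.18 and 0.58 on the sort 1 arrays, and 0.31 and 0.40 on the sort 2 arrays. Its mean was 0.37 ± 0.017, and its arrays do not overlap with those of Rps27l. Under deletion the order of the pair differed by day: Rps27l had -0.40 on day 3 and 0.03 on day 5, and Rps27 -0.03 and -0.28. Cdkn1a, a p53 target outside the family, had 0.82 on day 3 and 0.05 on day 5 under deletion, opposite in sign to Rps27l on day 3, and -0.84 in sort 1 and -0.07 in sort 2. Mdm2, another p53 target, had 0.22 on day 3, 0.12 on day 5, -0.13 in sort 1 and 0.00 in sort 2. In the sorts Mdm2 did not pass the signal filter and was not tested, so its sort values may reflect background.

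The other members at the low end of the sort were Rpl21, at -0.20 in sort 1 and -0.05 in sort 2, and Rpl7l1, at 0.15 and -0.10. Rpl4, which lines the exit tunnel, had 0.20 and -0.07, Rps2 0.00 and 0.16, and Rpl31 0.22 and -0.02, each value of sort 1 before that of sort 2. Their signs are not settled by these data, and Rpl4, Rps2, Rpl31 and Rpl7l1 had means below 0 under median centring. The P-stalk proteins Rplp0 and Rplp1 averaged 0.38 ± 0.152 and 0.24 ± 0.037, and Rplp2 had 0.19 in sort 1. Rpsa averaged 0.30 ± 0.039, Rpl13a 0.36 ± 0.122, Rpl10 0.27 ± 0.183, Rpl22 0.13 ± 0.038 and Rpl11 0.12 ± 0.008. The last 2 of these turned below 0 under median centring, with -0.06 for Rpl22 and -0.08 for Rpl11. A second, dimmer probe of Rpl22 read 0.83 in sort 1 and 0.63 in sort 2, a mean of 0.73 that exceeds the value of every member by its brightest probe, so the level of Rpl22 in GFPhi cells is uncertain.

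By part of the ribosome, the 42 large subunit genes had medians of 0.23 in sort 1 and 0.36 in sort 2, and 41 of 42 were higher over both. The 31 small subunit genes had 0.30 and 0.40, and all 31 were higher in each sort, although median centring gave the small subunit genes -0.18 in sort 2 and the large subunit genes -0.21. Members that were high in one sort tended to be high in the other, with r = 0.57 over 77 members, and for all genes r was 0.60 over 10272 genes. Points share probes, dyes and slides within a sort, and genes are not independent replicates. Between the deletion days r was -0.17 over 78 members.

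Setting the comparisons side by side, 69 of 76 members (90.8%) were lower in both deletion days and higher in both sorts, a pattern that 12.2% of the 10251 genes measured in all pairs had. The 2 comparisons share no RNA. This count rests on the loess normalization, since under median centring 3 members were higher in both sorts. Rps27l and Rpl21 lie outside the quadrant that holds the rest, as the plot of deletion against sort shows.

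**Figure D3:**
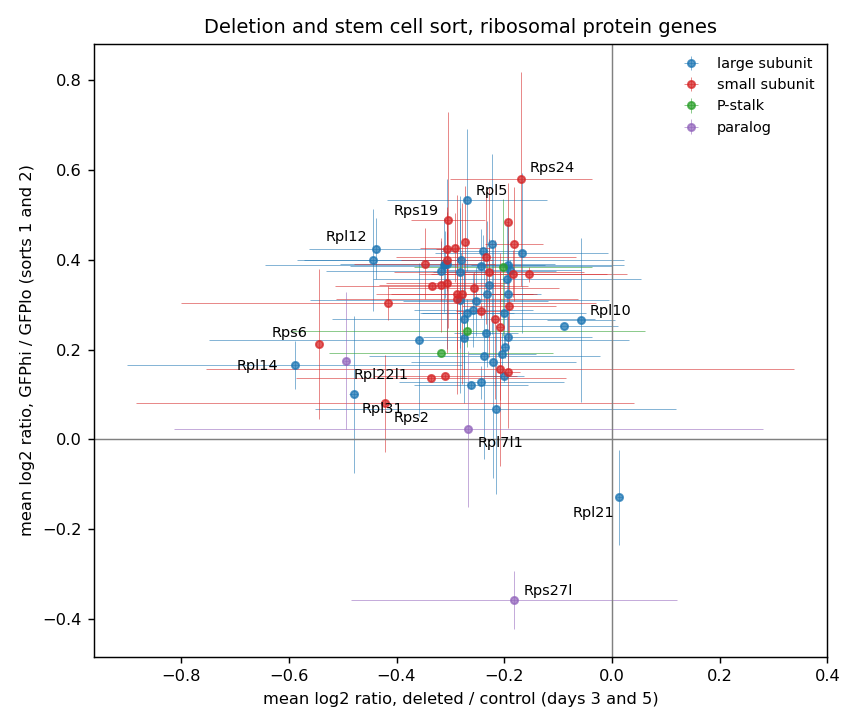
Mean log2 ratio of deleted over control (x axis) against that of GFPhi over GFPlo (y axis) for the 79 tested members, coloured by part of the ribosome; bars are SDs over 2 RNA pairs and are left out where 1 pair has a value. All but Rpl21 lie left of 0 and all but Rpl21 and Rps27l above 0, with loess normalization; under median centring 17 members lie below 0 on the y axis.

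Related gene lists did not all lie where the ribosomal protein genes lay. The mitochondrial ribosomal proteins, which serve the separate ribosome of that organelle, lay at -0.39 on day 3 (median) and at -0.02 on day 5; 72 of 78 were lower over both days. In the sorts they were at -0.09 and -0.11, with 66 of 78 lower in GFPhi cells, opposite in sign to the cytoplasmic proteins, although median centring gave 0.04 in sort 1. The elongation factors and other genes of TOP messenger RNAs had medians of -0.10 on day 3 and -0.11 on day 5, and 0.31 and 0.44 in the sorts, where 19 of 20 were higher (median centring gave -0.14 in sort 2). Among them Eef1a1, which delivers aminoacyl-tRNA, averaged 0.50 and Eef2, the translocase, 0.50 in GFPhi over GFPlo cells. Translation initiation factors had -0.36 on day 3, 0.15 on day 5, and 0.03 and -0.06 in the sorts. Their day 5 sign also turned under median centring, to -0.11.

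The genes of ribosome assembly showed a wider gap between the days. The 50 tested ribosome biogenesis genes had a median of -0.83 on day 3, with all 50 lower in deleted epithelium. On day 5 their median was 0.10, with 40 of 50 higher, or -0.02 under median centring. With loess, 41 of 50 passed the test of the day difference, all with the higher ratio on day 5, against 28.6% of all genes, and none passed the test over both days. This test has 1 RNA pair a day, and under median centring or with processed signals 0 genes of any list passed it. Nop56, a core protein of box C/D particles, had -1.04 on day 3 and -0.24 on day 5. The RNA polymerase I machinery lay at -0.33 on day 3 and at 0.03 on day 5 (-0.08 under median centring), and 8 of 15 genes passed the day test with loess, against the same 28.6% of all genes. In the sorts biogenesis genes had medians of 0.09 and -0.02, and their mean over both sorts turned in sign, with a median of 0.04, or -0.04 under median centring. Among 16 regulators of ribosomal protein synthesis, Myc had -1.32 on day 3, 0.01 on day 5, 0.34 in sort 1 and 0.21 in sort 2, and 3 of the 16 passed the day test in each direction, 6 of 16 in all, where 28.6% of all genes passed.

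**Figure D4:**
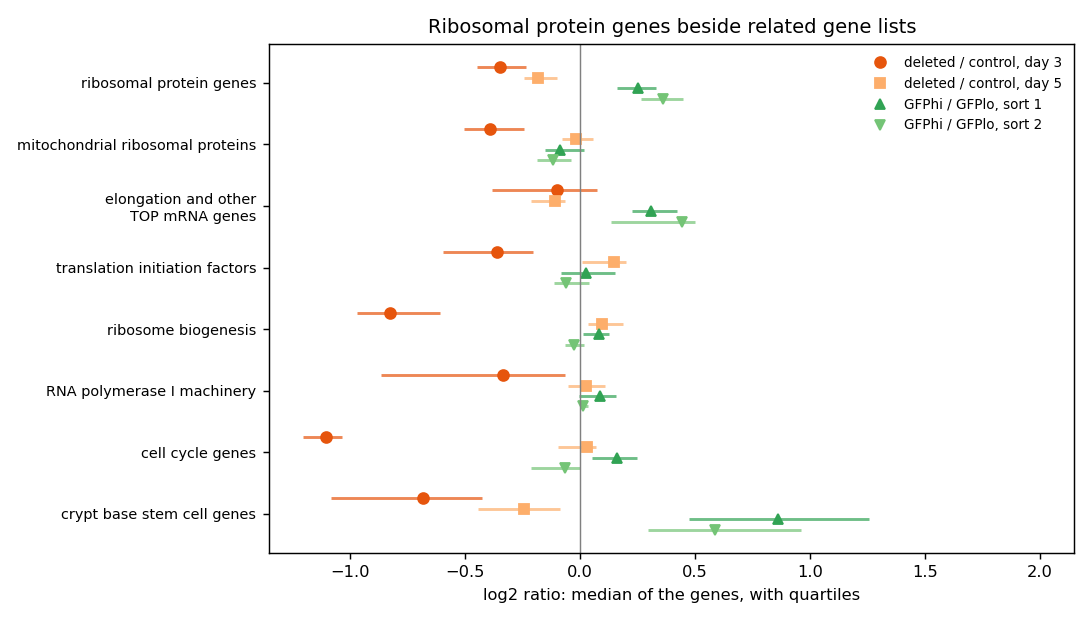
Median log2 ratio (symbols) and quartiles (lines) of 8 gene lists in each RNA pair, with deleted over control on day 3 and day 5 and GFPhi over GFPlo in sorts 1 and 2. The ribosomal protein genes lie at -0.35, -0.18, 0.25 and 0.36, ribosome biogenesis genes at -0.83, 0.10, 0.09 and -0.02, and cell cycle genes at -1.10, 0.03, 0.16 and -0.06; under median centring the ribosomal protein genes are at -0.20 in sort 2, biogenesis genes at -0.02 and cell cycle genes at -0.17 on day 5.

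Markers of cell types also had ratios away from 0, with signs that differed between lists and between days. In deleted epithelium, all 37 tested cell cycle genes were lower on day 3, with a median of -1.10, and 24 of 37 were higher on day 5, with 0.03, which median centring turned to -0.17. Enterocyte genes had a median of 0.67 on day 3 and -0.44 on day 5 (11 of 16 past the day test with loess, against 28.6% of all genes, and 0 under median centring), and T and intraepithelial lymphocyte genes 0.96 and -0.03. Fibroblast and endothelial genes had -0.31 on day 3 and 4.41 on day 5, where Col1a1 read 4.95 and 4.67 on the 2 arrays. Paneth cell genes had -1.20 on day 3 and 0.39 on day 5, and crypt base stem cell genes -0.68 and -0.24. Of the lists absent so far, goblet cell genes had 0.54 on day 3 and 0.07 on day 5 (-0.11 under median centring), enteroendocrine genes 0.40 and -0.38, tuft cell genes 0.68 and -0.40, B and plasma cell genes 0.61 and 0.13, and myeloid genes -0.14 and 0.21. In the sorts, stem cell genes had medians of 0.86 and 0.59, with 15 of 16 higher in GFPhi cells. Goblet cell genes had -1.67 and -1.19 and enteroendocrine genes -1.79 and -0.52, with all 8 and all 9 tested lower in GFPhi cells. Cell cycle genes had 0.16 and -0.06, and enterocyte genes -0.30 and -0.16. The tested markers of T cells in the sorts were 4 of 15 and those of fibroblasts and endothelium 2 of 10. The part of these cell types in the members' ratios was not tested.

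The size of the shift depended on how the arrays were scaled, and in sort 2 its sign did too. Since the members are among the brightest spots, a loess curve is partly fitted through them: 98 genes were at or above the members' median brightness, and 40 of them are members. With the members' probes given no weight in the loess fit, their medians were -0.38 on day 3, -0.19 on day 5, 0.31 in sort 1 and 0.51 in sort 2. With median centring and no loess they were -0.42, -0.50, 0.43 and -0.20, while all genes tested had 0.11 in sort 1 and -0.12 in sort 2. Over both deletion days the median of all genes tested was -0.08 in that setting. The scanner's processed ratios gave -0.33, -0.12, 0.18 and 0.08, and the deposited series matrix -0.38, -0.13, 0.29 and 0.20. The deletion medians stayed below 0 under each of these settings.

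**Figure D5:**
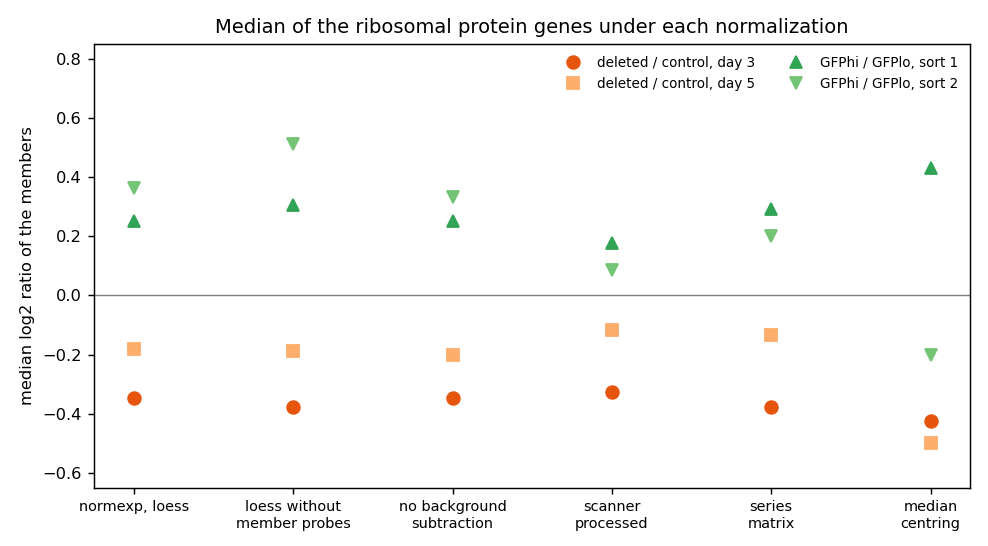
Median log2 ratio of the ribosomal protein genes in each of the 4 RNA pairs (symbols as in the legend) under 6 ways of normalizing the arrays. Day 3 and day 5 lie below 0 throughout, sort 1 above 0 throughout, and sort 2 above 0 in 5 settings and at -0.20 under median centring.

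Probes of the same gene differed somewhat. Of the members, 38 had more than 1 probe above background in the deletion, and in 5 of them (Rpl11, Rpl13, Rpl21, Rps13 and Rps4x) the probes' means had both signs. In the sorts 36 had several, with both signs in Rpl21, Rpl22l1, Rpl27a, Rpl7l1 and Rps12. The median range between probes of a gene was 0.05 on the log2 scale in the deletion and 0.11 in the sorts, and the widest was 0.42 for Rps24 in the deletion and 0.62 for Rpl27a in the sorts. Ribosomal protein genes have many processed copies in the genome with nearly the same sequence, so a probe can read more than 1 locus. By the positions in the scanner files (build mm8), the brightest probes of Rpl10 and Rpl15 lie on another chromosome than the gene, and those of the other 78 on the same one. In that build the probe of Rpl14 lies on chromosome 9 at 120423269 to 120423328 (plus strand), that of Rpl22l1 on chromosome 3 at 28998348 to 28998407 (plus strand), that of Rps24 on chromosome 14 at 23324565 to 23325890 (plus strand) and that of Rps27l on chromosome 9 at 66746823 to 66748513 (plus strand). The exon each falls in is not annotated here.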

How the data were processed

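Intensity values (mean and background signals per spot) and log10 ratios of red over green came from the scanner software, per the file headers. The deposited series matrix holds log2 ratios whose exact normalization is not stated. Set against the turned scanner log ratios it gave r between 0.972 and 0.999 and column medians from -0.025 to 0.031. Intensities were corrected with normexp (offset 50) and normalized by loess within arrays in limma 3.58.1 (R 4.3.3), with control spots and outlier spots given no weight. Ratios were turned to deleted over control or GFPhi over GFPlo, and dye-swapped arrays were averaged per RNA pair where both had a value. The 4 RNA pairs were fitted together, with Benjamini-Hochberg adjustment over all genes tested, two-sided, at 0.05. Genes tested were those whose brightest probe the scanner software marked as above background for 1 or both RNAs of the comparison, on each array. The fit was tested on simulated data. Of 200 changed genes among 16024 in the simulated deletion, 200 had the right sign. This count concerns signs alone. Detection of shifts as small as those of the members was not tested. Members and gene lists were chosen with earlier results of these data known. Members given per array were the 6 highest and 6 lowest of each comparison, every member past the test, and a set of named proteins and paralogs; some of these are not reported here. Probe positions are those of the files (mm8) and promoter sequences are from RefSeq (GRCm38.p6). Alternatives covered background correction, normalization, signal filter, probe choice, fits of single arrays and leaving out each RNA pair.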

Additional observations from a re-analysis of the deposited data

Results flagged for a closer look

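In 6 members the ratio of deleted over control passed limma's test of the day difference. Each day is 1 RNA pair and the spread is that of the sorts, so the test holds no measure of the spread within a day, and 0 members passed it under median centring or with the scanner's processed signals. Day 5 minus day 3 was 0.77 for Rpl7l1, 0.77 for Rps13, 0.65 for Rps2, 0.54 for Rpsa, 0.43 for Rpl3 and -0.47 for Rplp1. With the 8 single arrays and a random block for the RNA pair, Rpl7l1 kept its call (limma adjusted p = 0.0229), as 1 of 2181 genes called. The limma adjusted p was 0.336 for Rps13, 0.549 for Rps2, 0.337 for Rpsa, 0.738 for Rpl3 and 0.830 for Rplp1 in that fit.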

How the results depend on the processing

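The ratios already pair the 2 groups, since each array sets both RNAs of a pair side by side. No further pairing was possible, because the days and sorts share no animals that the labels name. A slide block was not run separately, since each slide holds 1 RNA pair. The members' median under deletion (-0.26) was -0.45 under median centring, and on day 5 (-0.18) it was -0.50. In the sorts the median of 0.31 was 0.40 with the members' probes left out of the loess fit, 0.13 under median centring and 0.14 with the scanner's processed signals. The sort 1 median of 0.25 was 0.43 under median centring. The sort 2 median of 0.36 was 0.51 with the members' probes out of the loess fit, 0.0846 with processed signals, 0.20 in the series matrix, and turned to -0.20 under median centring. The causes were not tested. Genes called for the day difference (4533) numbered 0 under median centring, 0 with processed signals, 2698 in the series matrix and 2181 with a random block. Members called for it (6) numbered 0, 0, 3 and 1 in the same settings, and 11 with the mean over probes. A random block called 254 genes for the deletion and 38 for the sort, and a fit of the sort alone 113. With a dye term as well, chosen after seeing the data, these were 123, 16, 2149 for the day difference, and 1 member for it. Leaving out an RNA pair gave between 0 and 6167 genes called for the deletion, between 0 and 44 members, and between 0 and 127 genes for the sort. The 6167 genes and 44 members came without day 5, where the lone day 3 pair is assumed to vary like the sorts; without day 3 they were 1244 and 1. Members called for the sort numbered 0 in every setting run. Signal over background limits Rpl3l.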
